A study of Mus musculus with 10 samples.

Results

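The Pax transcription factor family comprises 9 genes in the mouse, Pax1 to Pax9, of 21938 protein-coding genes considered. All 9 were taken by name, each as the gene body plus 50 kb on both sides in mm10 (GRCm38). The windows spanned 107 kb for Pax4 to 286 kb for Pax5, and the summits of 8 ChIP-seq peak lists were placed in them.

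The lists came from AB17 cells, a line of immortalized hepatocytes from a C57BL/6 mouse carrying Arid1a fl/fl, which also carried SV40 large T antigen and an activated H-Ras in every group. Cells infected with Ad-GFP are the WT group (Arid1a fl/fl), and cells infected with Ad-Cre, in which Arid1a is deleted, are the KO group (Arid1a-/-). H3K27me3 and H3K9me3 were profiled in both genotypes, and Arid1a, Brg1, Ctcf and Rad21 in WT cells, with 1 library per group, and 1 input per genotype completed the 10 samples. With 1 line and no replicate, the differences below compare pairs of libraries, no p-value is given, and genotype cannot be told apart from variation between libraries, infections or preparations.

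A summit is the highest point of a peak, and its strength is the −log10 q-value that the peak caller assigned to it. A summit with a strength of at least 5 is called strong below. The 8 lists held 70408 to 143835 summits on chromosomes 1 to 19, X and Y, and their sequencing depth is unknown. For H3K27me3 the KO list (86050 summits) was shorter than the WT list (109601 summits), at a ratio of 0.785, so a gene needs to be read against that ratio. The intervals given for ratios are 95% exact (Clopper-Pearson) binomial intervals and those for shares are 95% Wilson intervals. Both cover counting error only and are too narrow where neighbouring summits belong to the same domain. The lists hold no RNA, and the RNA-seq that the study made of AB17 cells was not analysed here, so the hepatocyte label could be set only against the marks. Of 10 hepatocyte marker genes, 7 had a strong WT H3K27me3 summit in their window, including Hnf4a with 41 summits in WT against 34 in KO cells. Among 4 markers each of endothelial, stellate and fibroblast, cholangiocyte and blood cells, the numbers were 2, 1, 2 and 2. Over all gene windows, 39.2% held a strong WT H3K27me3 summit. The loss of Arid1a in KO cells was not checked here, because the Arid1a list was from WT cells.

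Pax proteins bind DNA through a paired domain and direct the formation of organs and cell lineages in the embryo. They fall into 4 paralogue groups, Pax1/Pax9, Pax2/Pax5/Pax8, Pax3/Pax7 and Pax4/Pax6, which differ in whether a homeodomain accompanies the paired domain. In cells that do not use them, developmental regulators of this kind are known as typical targets of the Polycomb complexes, which deposit H3K27me3 over CpG-rich starts. H3K9me3 is the mark of constitutive heterochromatin, Arid1a and Brg1 are subunits of the SWI/SNF remodeller, Ctcf binds DNA at loop anchors, and Rad21 is a subunit of cohesin.

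CpG content is shown first, since it is the sequence feature known to accompany Polycomb domains. RefSeq (GRCm38.p6) listed 10 promoters of 7 members, each running from 250 bases before to 50 bases after a start. They held 7 to 30 CpG dinucleotides with a median of 16.5, against a median of 7 over 32851 promoters of the same length. The Pax6 promoter at chr2:105668646-105668945 (plus strand), with 18 CpGs, and the Pax8 promoter at chr2:24475550-24475849 (minus strand), with 7, are printed 5′ to 3′ with each CG in capitals. They are shown because the strongest WT H3K27me3 summit of Pax6 lay 3 bp from that RefSeq start, whereas no strong summit lay at the start of Pax8. This pair does not stand for the members. The nearest WT summit was 1670 bp from the Pax8 start. It was farther at Pax2 (23 and 30 CpGs, 2146 and 3300 bp), Pax5 (23, 7123 bp) and Pax7 (17, 8537 bp). Besides that Pax6 start, only the Pax1 start (13, 1128 bp) had a nearer one than Pax8. A link between CpG content and the mark was not tested.
Pax6 promoter: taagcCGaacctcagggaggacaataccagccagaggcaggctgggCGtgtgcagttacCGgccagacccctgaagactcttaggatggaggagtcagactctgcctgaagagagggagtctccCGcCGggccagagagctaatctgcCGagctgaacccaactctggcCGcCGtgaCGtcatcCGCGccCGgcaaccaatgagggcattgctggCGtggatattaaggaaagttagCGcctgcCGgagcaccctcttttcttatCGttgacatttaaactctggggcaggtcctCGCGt
Pax8 promoter: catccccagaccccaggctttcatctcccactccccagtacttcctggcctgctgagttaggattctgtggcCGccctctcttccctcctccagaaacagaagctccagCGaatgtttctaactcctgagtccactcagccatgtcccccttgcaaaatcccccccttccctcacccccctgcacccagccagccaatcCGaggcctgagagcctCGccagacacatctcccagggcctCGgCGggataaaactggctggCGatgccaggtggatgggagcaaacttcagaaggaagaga

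To compare H3K27me3 between genotypes gene by gene, the summits in each window were counted. The 9 windows together held 245 summits in WT against 256 in KO cells, a KO to WT ratio of 1.04 (interval 0.874 to 1.25), whereas the whole lists gave 0.785. Pax5 and Pax7, followed by Pax1 and Pax9, held more summits in KO cells, and the other 5 genes held fewer. Among all 9366 genes with at least 10 summits in both lists together, 74.2% held fewer in KO cells. The deficit of H3K27me3 summits seen over the KO list was thus not seen in the sum over the family, and the higher total in KO cells rested on Pax5 and Pax7. Without Pax5 the counts were 160 and 150 (ratio 0.938), and without Pax7 they were 216 and 213 (0.986). Pax5 and Pax7 were not left out together, so no summed ratio is given for the remaining genes. Their WT and KO counts were 33 and 24 (Pax2), 30 and 20 (Pax8), 13 and 8 (Pax4) and 5 and 1 (Pax3). Pax6 held 17 and 16, Pax9 7 and 8, and Pax1 26 and 30. All 5 genes with fewer summits in KO cells are among these, so the family sum does not mean that its members lacked the deficit. Pax2 (0.727), Pax8 (0.667), Pax4 (0.615) and Pax3 (0.2) had ratios under that of the whole lists. Pax6 (0.941), Pax9 (1.14) and Pax1 (1.15) had ratios above it.

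**Figure D1:**
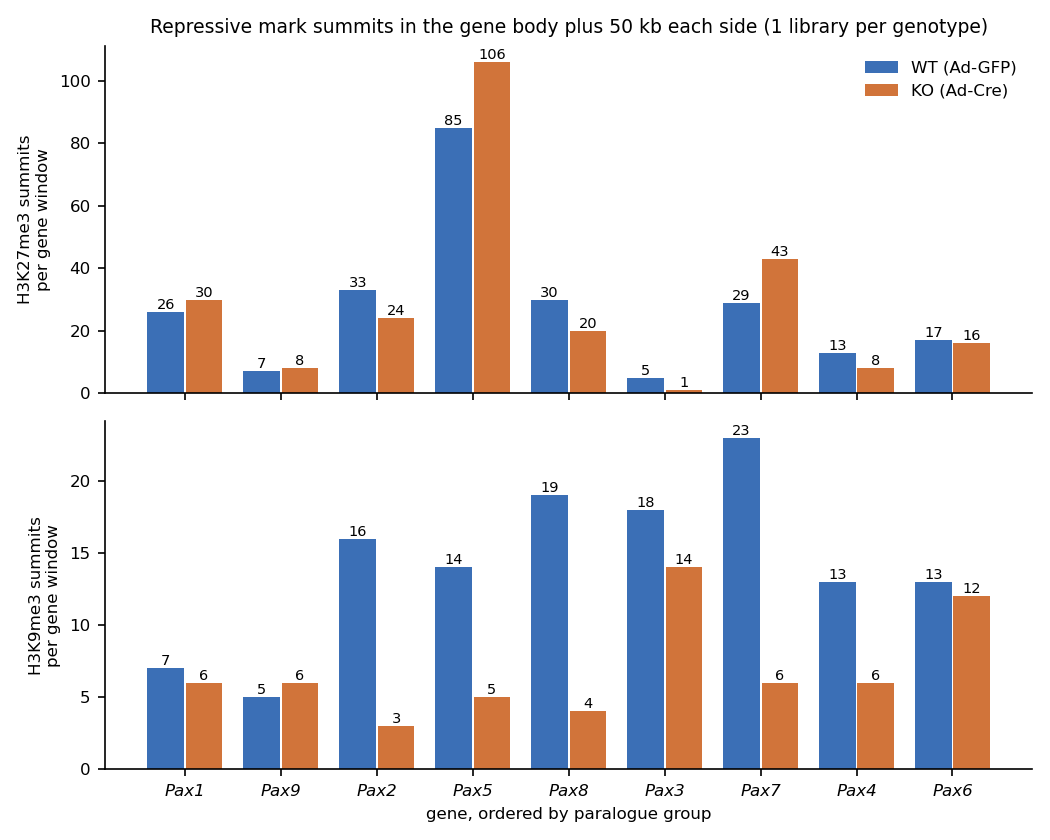
H3K27me3 (top) and H3K9me3 (bottom) summits per gene window, defined as the gene body plus 50 kb each side, in WT (blue) and KO (orange) cells, with 1 library per bar and genes ordered by paralogue group. Pax5 held the most H3K27me3 summits in both genotypes, with 85 and 106, while H3K9me3 counts were lower in KO for 8 of the 9 genes.

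A gene was called when the KO to WT ratio, after adding 1 to both counts, reached 1.5 in either direction. Of the 8 members with at least 10 summits (Pax3 had fewer), 1 was called lower in KO, which was Pax4, against 36.0% of all genes tested. None was called higher, against 3.64% of all genes, and 7 lay in between. The median of this ratio was 1.03 over the 8 members and 0.773 over all genes tested. When each count was divided by the size of its own list, Pax5 and Pax7 passed the same limit as higher in KO (10.3% of all genes) and none as lower (17.6%).

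**Figure D2:**
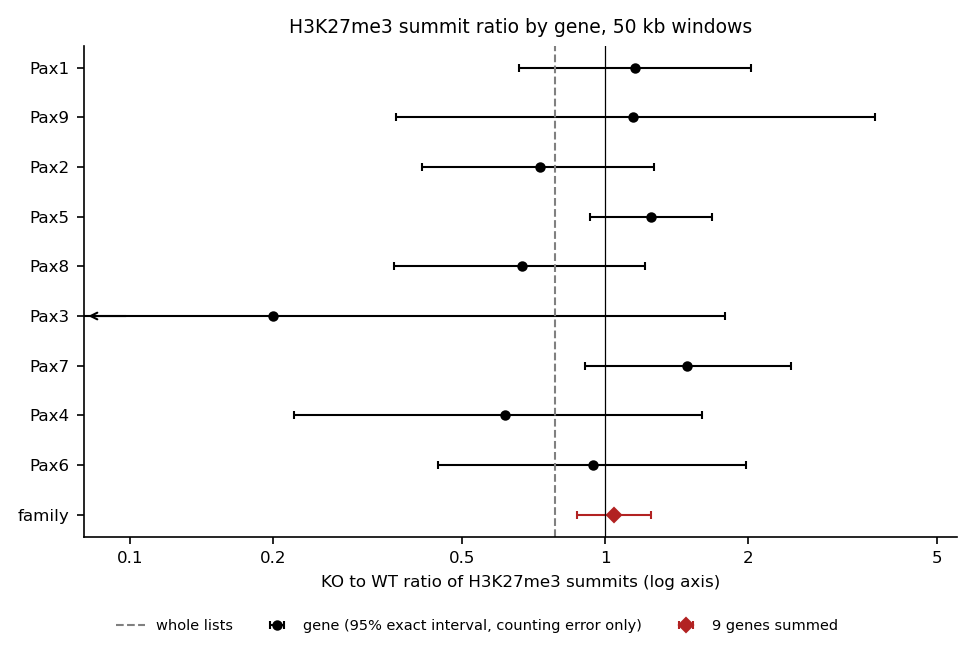
KO to WT ratio of H3K27me3 summits for each gene and for the 9 genes summed (red diamond), on a log axis, with 95% exact intervals for counting error only; the dashed line is the ratio of the whole lists, and the arrow marks an interval that runs off the axis. The intervals of Pax5, Pax7 and the sum lie above the dashed line, and every interval includes 1.

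Pax5 and Pax7 held the extra summits. Pax5, which commits lymphoid progenitors to the B cell lineage, lies at chr4:44524757-44710487 on the minus strand, with the start of Zcchc7 in its upstream flank. Its window held 85 summits in WT against 106 in KO cells, a ratio of 1.25 (0.929 to 1.68), and in both genotypes it was the most densely marked of the family. At 37.1 summits per 100 kb in KO cells it exceeded 99.1% of all genes, and at 29.7 in WT cells 96.4%. The body held 57 and 69 of these summits, the 50 kb upstream 9 and 14, and the 50 kb downstream 19 and 23. The body and both flanks thus each had a higher count in KO cells, although the stretch 60 to 80 kb from the start held 10 in WT and 5 in KO cells.

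Pax7, which maintains the satellite cells of skeletal muscle, lies at chr4:139737062-139833528 on the minus strand, with no other protein-coding start in its window. It held 29 summits in WT against 43 in KO cells, a ratio of 1.48 (0.905 to 2.46), higher than in 96.2% of all genes tested. The 50 kb upstream held 9 and 17, the body 17 and 24, and the 50 kb downstream 3 and 2. Within 1 Mb of the 2 gene bodies but outside the windows, the counts were lower in KO. They were 305 and 250 around Pax5 and 307 and 281 around Pax7. The higher counts were thus not found in the surrounding sequence.

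The additional summits were mostly weak. Over the family, strong summits numbered 61 in WT and 48 in KO cells, a ratio of 0.787 beside 0.819 over the whole lists. Summits with a strength under 5 numbered 184 and 208, a ratio of 1.13 beside 0.781. Pax5 held 21 strong summits in WT and 18 in KO cells, whereas its weak summits numbered 64 and 88. At Pax7 the strong summits numbered 7 and 9 and the weak summits 22 and 34. Only weak summits therefore ran against the trend of the lists at Pax5. Strength depends on the depth of each library, so the limit of 5 may divide the WT and KO summits differently.

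Next, the stretches covered were compared, because a domain that is called as a string of peaks can gain summits without growing. Of 155 bins of 10 kb in the 9 windows, 84 held a summit in WT and 83 in KO cells (ratio 0.988), whereas the occupied bins of the whole chromosomes gave a ratio of 0.821. Pax5 had summits in 26 of 29 bins in WT and 27 in KO cells, and Pax7 in 13 and 14 of 20. When summits at most 3 kb apart were merged, Pax5 had 28 clusters in WT and 33 in KO cells, but Pax7 had 15 and 12. The longest cluster of Pax5 spanned 35.5 kb with 21 summits in WT cells and 9.56 kb with 7 summits in KO cells. Thus the family had nearly as many occupied bins in KO as in WT cells, while the direction at Pax7, and at Pax1 with 13 and 11 clusters, turned when neighbouring summits were merged.

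Positions were shared between genotypes to a similar degree in both directions. Of the WT summits, 62.0% (55.8 to 67.9) had a KO summit within 1 kb, beside 54.4% over the whole list. Of the KO summits, 60.5% (54.4 to 66.3) had a WT summit within 1 kb, beside 68.3%. The share was 46.5% (32.5 to 61.1) for the KO summits of Pax7 and 57.5% (48.0 to 66.5) for those of Pax5. At Pax1 it was 76.9% (57.9 to 89.0) for the WT summits. For the KO summits of Pax9 it was 25% (7.15 to 59.1), whereas Pax2, Pax4, Pax6 and Pax8 lay above the list, at 68.8% to 79.2%. The lower share over the summed KO summits was thus found at Pax5, Pax7 and Pax9 and, at 66.7%, barely at Pax1.

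The top H3K27me3 summit of each of Pax2, Pax5, Pax6 and Pax7 lay at most 10204 bp from the gene start in either genotype. A window with a strong summit was found for 8 genes in WT and for the same 8 in KO cells, all but Pax3, against 39.2% and 34.1% of all genes. Strengths were not compared between genotypes, since they depend on the depth of each library, and ranks within the list are given instead. In Pax2, a regulator of the developing kidney, optic nerve and inner ear (chr19:44756045-44837871, plus strand), the top WT summit was at chr19:44753606, 2439 bp upstream of the gene start. Its strength of 58.1 was the 10th highest of the WT list. The top KO summit lay 1390 bp away and ranked 46th with a strength of 30.7. Pax2 also had WT summits of 33.7 at 80.4 kb downstream and 32.7 at 33.2 kb upstream of its start, so its strong summits were not limited to the start.

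In Pax7 the top WT summit lay in an intron 9097 bp from the start (strength 42.4, rank 39), and the top KO summit lay 1107 bp from it (28.0, rank 74). In Pax5 the top summits of the genotypes lay 241 bp apart in exons of Pax5 that overlap 5730488B01Rik, at 39.5 (rank 55) in WT and 21.6 (rank 221) in KO cells. In these 3 genes the top summits of the genotypes thus lay at most 1390 bp apart. Pax6, the master regulator of eye development that also acts in brain and islets, lies at chr2:105668900-105697364 on the plus strand. Its top WT summit was 7 bp from the annotated start, in an intron of the overlapping Pax6os1 (27.6, rank 259), and its top KO summit 509 bp upstream of it (23.5, rank 158). Pax6 was thus the member with the top summit directly on the start.

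These top summits stood alone. In WT cells the nearest other summit was 28.2 kb away at Pax2, 21.5 kb at Pax7, 14.4 kb at Pax5 and 11.4 kb at Pax6. In KO cells the distances were 21.7, 14.4, 12.3 and 12.9 kb in the same order of genes. The median distance to the nearest summit was 1.36 kb for WT summits with a strength under 5 and 5.72 kb for the 605 WT summits of at least 20. A long unbroken peak yields a single summit, and peak widths were not analysed here. The number of summits and the amount of the mark can therefore not be equated.

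**Figure D3:**
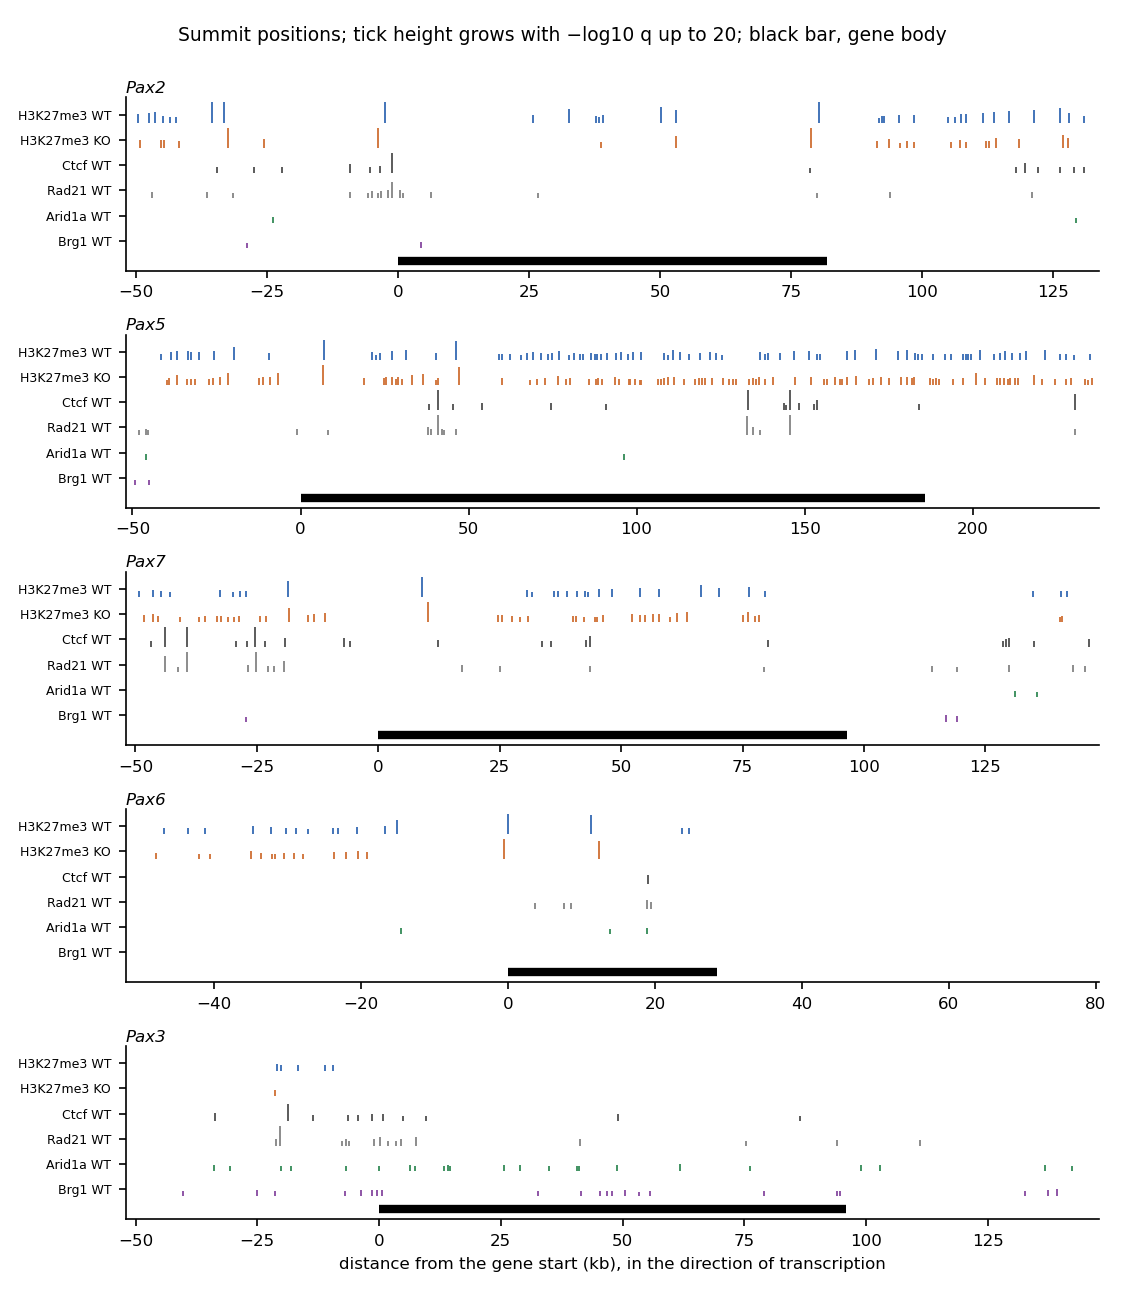
Positions of summits from 6 lists around 5 members, in kb from the gene start in the direction of transcription; tick height grows with strength up to 20 and the black bar is the gene body. The tallest H3K27me3 ticks of Pax2, Pax5, Pax7 and Pax6 stand apart from the rows of short ticks, and Pax3 shows its 5 WT and 1 KO H3K27me3 summits upstream of the start with Arid1a and Brg1 ticks across the window.

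Within the group of Pax2, Pax5 and Pax8, only Pax8 had few strong summits. Pax8, required for thyroid follicular cells (chr2:24420560-24475599, minus strand), held 30 summits in WT against 20 in KO cells, a ratio of 0.667 (0.359 to 1.21). Only 2 of them in WT and 1 in KO cells lay in its body, and its 1 strong summit in each genotype lay in an intron of the neighbour Psd4. The nearest summits to its RefSeq start, 1670 bp away in WT and 1696 bp in KO cells, had strengths of 2.42 and 2.16. Pax2 held 33 summits in WT against 24 in KO cells, a ratio of 0.727 (0.411 to 1.27), with 18 and 10 strong ones. Both genes had ratios close to that of the whole lists.

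Pax1 and Pax9 act together in the sclerotome, from which the vertebrae form, and Pax9 also acts in teeth and palate. Pax1 (chr2:147361925-147393295, plus strand) held 26 summits in WT against 30 in KO cells, of which 6 and 4 were strong. Pax9 (chr12:56691767-56712822, plus strand) held 7 and 8, of which 1 and 2 were strong. Its top WT summit lay 227 bp upstream of the start (17.0), and its top KO summit 2235 bp upstream (10.7). The ratios were 1.15 (0.660 to 2.03) for Pax1 and 1.14 (0.362 to 3.70) for Pax9, whose intervals include both 1 and the value of the whole lists.

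Pax4, needed for the beta and delta cells of the pancreatic islets, is the shortest member, with a body of 7.02 kb at chr6:28442334-28449353 on the minus strand. It held 13 summits in WT against 8 in KO cells, a ratio of 0.615 (0.221 to 1.60). It shares its window with the starts of 5 other coding genes (Zfp800, Gcc1, Arf5, Fscn3 and Snd1), and its top WT summit (9.44) lay in an exon of Zfp800. With 10 kb on each side instead of 50 kb the counts were 5 and 6, so the direction turned. The top KO summit (10.9) lay 1346 bp upstream of Pax4 itself, with a WT summit 75 bp from it. Pax6 held 17 and 16 summits, a ratio of 0.941 (0.445 to 1.98).

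Pax3 departed from the other members. It specifies neural crest and the muscle precursors that migrate into the limbs, and lies at chr1:78101267-78197134 on the minus strand, with no other protein-coding start in its window. It held 5 WT and 1 KO summits of H3K27me3, all of them in the flanks and none in the body. The strongest, 4.08 in WT and 2.76 in KO cells, lay 20913 and 21454 bp upstream of the start. Its paralogue Pax7, with 17 and 24 summits in the body alone, was thus marked at a level that Pax3 was not.

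The same window held the most SWI/SNF summits of the family. Pax3 had 23 Arid1a and 22 Brg1 summits, which were 45 of the 89 in the 9 windows (50.6%, 40.4 to 60.7). The other 8 genes held 0 to 5 Arid1a and 0 to 13 Brg1 summits, with none of either at Pax9, and none of Brg1 at Pax1 and Pax6. Per 100 kb, Pax3 had 11.7 Arid1a and 11.2 Brg1 summits, more than 92.2% and 86.5% of all genes. Within 1 Mb of the gene body but outside the window, the densities were 4.42 and 5.63. The medians over the family were 1.10 for both, against 3.45 and 4.0 over all genes. Pax4, with 13 Brg1 summits in a shorter window, had 12.1 per 100 kb, above 89.0% of all genes and above Pax3. All 13 lay in the flanks, which hold other coding genes, and the strongest lay 37 bp from a start of Snd1. At Pax3, 12 of the 22 Brg1 summits lay in the body. Apart from Pax3 and Pax4, the Pax windows thus held fewer SWI/SNF summits per length than the median gene.

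**Figure D4:**
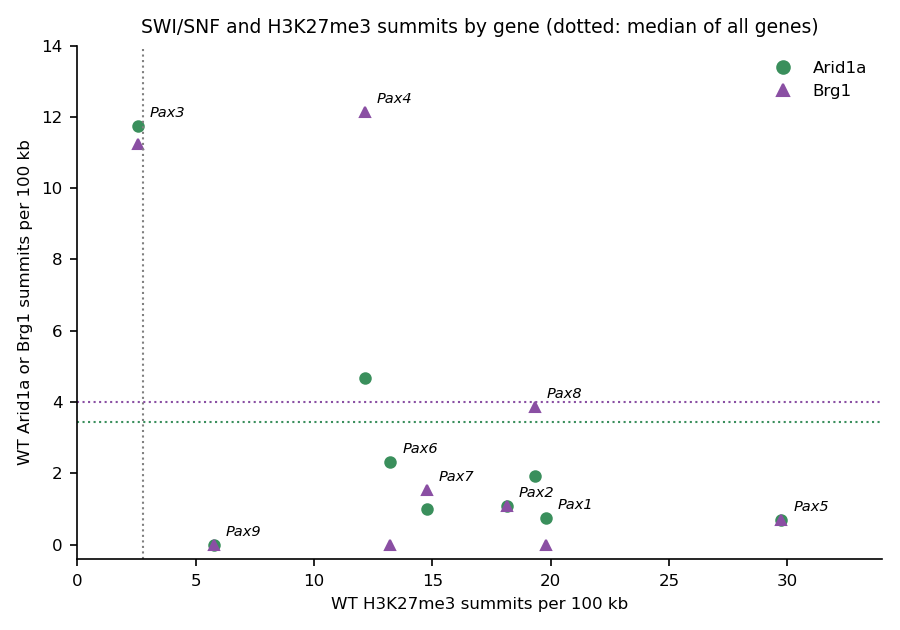
WT Arid1a (circles) and Brg1 (triangles) summits per 100 kb against WT H3K27me3 summits per 100 kb for the 9 genes; dotted lines are the medians over all protein-coding genes. Pax3 lies just below the H3K27me3 median, Pax3 and Pax4 stand above both SWI/SNF medians, and Pax5 sits at the opposite corner.

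All SWI/SNF summits of the family were weak. None of the 41 Arid1a and 48 Brg1 summits reached a strength of 5, whereas 18.0% of all gene windows held a strong Arid1a summit and 26.0% a strong Brg1 summit. The strongest at Pax3 were an Arid1a summit of 4.70 in an intron, 61829 bp from the start, and a Brg1 summit of 4.49 downstream of the gene. Of the 22 Brg1 summits there, 5 had an Arid1a summit within 1 kb (22.7%, 10.1 to 43.4), beside 27.5% over the list. Of the 15 Rad21 summits, 9 had a Brg1 summit within 1 kb (60.0%, 35.7 to 80.2), beside 22.2%. Rad21 at Pax3 was thus near Brg1 more often than over the list, whereas Brg1 was not near Arid1a more often than over the list. The Pax3 window was also dense in Brg1 summits, and the part of that density in the Rad21 share was not tested. Of the Pax3 summits, 2 of 23 for Arid1a and 5 of 22 for Brg1 fell on bases masked as repeats in the reference, against 25.9% and 24.9% over the lists.

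H3K9me3, in contrast to H3K27me3, was sparser in KO cells over most of the family. The 9 windows held 128 summits in WT against 62 in KO cells, a ratio of 0.484 (0.352 to 0.661), while the whole lists gave 0.938. Pax7 held 23 and 6, Pax8 19 and 4, Pax2 16 and 3, Pax5 14 and 5, and Pax4 13 and 6, and these 5 genes were called lower in KO. Across all 16166 genes tested, 55.0% were called lower and 11.6% higher, so 5 of 9 lower and 0 higher was near the background for lower calls. The median ratio, with 1 added to both counts, was 0.50 over the members and 0.615 over all genes. Fewer summits in KO were found at 8 members (all but Pax9) and at 72.8% of all genes. Lower H3K9me3 counts in KO cells were thus also seen over gene windows in general.

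The difference in H3K9me3 was uneven within the family. Pax3 held 18 and 14 H3K9me3 summits, Pax6 13 and 12, Pax1 7 and 6, and Pax9 5 and 6, and these 4 genes were not called. The summits were weak, with 1 strong in WT and 3 in KO cells. At Pax2 and Pax5 no WT summit had a KO summit within 1 kb, whereas at Pax6 7 of 13 did. Within 1 Mb of the gene body but outside the window, the counts were 211 and 72 around Pax2 and 209 and 102 around Pax7. The lower counts at these 2 genes thus extended beyond the windows. The surroundings held 148 and 87 around Pax5, 99 and 71 around Pax4, and 147 and 119 around Pax8, where the ratio of 0.810 was well above the 0.211 of the window itself.

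Both repressive marks met in these windows. Of the WT H3K9me3 summits, 25.8% (19 to 34) had a WT H3K27me3 summit within 1 kb, beside 8.27% over the whole list. In KO cells the share was 24.2% (15.2 to 36.2), beside 4.85%. The windows were denser in H3K27me3 than the list at large, with a median of 14.8 summits per 100 kb in WT against 2.76 over all genes, and its part in these shares was not tested.

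Ctcf and Rad21 summits were found at every member. The 9 windows held 85 Ctcf summits, of which 28 were strong, and 97 Rad21 summits, of which 22 were strong. A strong Ctcf summit was present at all 9 genes and a strong Rad21 summit at 8, against 87.0% and 81.9% of all gene windows. Pax7 held the most Ctcf summits with 21, followed by Pax5 with 15, and Pax6 the fewest with 1. Within 1 kb of a Ctcf summit lay 47 of the 97 Rad21 summits (48.5%, 38.8 to 58.3), beside 52% over the list. Conversely, 24 of the 28 strong Ctcf summits had a Rad21 summit within 1 kb, and the share over all strong Ctcf summits was not computed. Over the whole lists, 41.2% of Ctcf and 26.1% of Rad21 summits were strong. The median density of the members was 5.61 per 100 kb for both, against 6.45 and 6.71 over all genes. Above these medians lay 2 and 4 members. In the presence of a strong summit and in the share of Rad21 near Ctcf, the family did not stand out from other genes.

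The letters under 6 sites, chosen after their values were seen, are shown because they carry the sequence that Ctcf reads. They are the 3 strongest of Pax7, 1 of 2 exact matches at Pax1, the site next to the Pax2 start and the strongest Ctcf and Rad21 pair at Pax8, while other strong sites such as those of Pax4 (46.5) and Pax5 (36.1) are not printed. A core of the Ctcf motif, CCANNAGNNGGC with N for any base, was searched on both strands within 50 bp of each summit. An exact match was found at 14.4% of all Ctcf summits, against 1.08% of positions moved by 2000 bp. At the Pax genes 10 of 85 summits had an exact match, 6 of them among the 21 at Pax7. At most 1 differing letter was found at 29 of the 85, beside 32.6% of all Ctcf summits and 8.69% of the moved positions. The lines below give the plus strand of mm10 over 101 bases centred on the summit, with the match in capitals. Where the match is on the minus strand, the capitals show its reverse complement.
Pax7, chr4:139858780-139858880, exact match on the minus strand: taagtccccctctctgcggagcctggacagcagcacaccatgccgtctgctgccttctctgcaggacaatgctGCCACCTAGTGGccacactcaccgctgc
Pax7, chr4:139872768-139872868, exact match on the plus strand: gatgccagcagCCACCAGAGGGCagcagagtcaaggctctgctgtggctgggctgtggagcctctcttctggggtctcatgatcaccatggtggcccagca
Pax7, chr4:139877412-139877512, exact match on the plus strand: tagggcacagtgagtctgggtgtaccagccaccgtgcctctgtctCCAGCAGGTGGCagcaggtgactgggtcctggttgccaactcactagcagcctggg
Pax1, chr2:147379081-147379181, exact match on the plus strand: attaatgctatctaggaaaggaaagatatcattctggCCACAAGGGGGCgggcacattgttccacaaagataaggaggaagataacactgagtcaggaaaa
Pax2, chr19:44754802-44754902, 1 differing letter, minus strand: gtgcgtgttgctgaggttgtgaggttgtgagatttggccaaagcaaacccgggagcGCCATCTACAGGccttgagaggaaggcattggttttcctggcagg
Pax8, chr2:24409311-24409411, 1 differing letter, plus strand: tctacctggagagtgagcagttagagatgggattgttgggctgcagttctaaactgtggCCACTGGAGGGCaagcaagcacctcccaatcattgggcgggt

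The 3 Pax7 sites lay 25302, 39290 and 43934 bp upstream of its start, with Ctcf strengths of 62.5, 48.5 and 48.0. A Rad21 summit lay 123, 51 and 28 bp from them, with strengths of 49.8, 21.6 and 15.5. These were the 3 strongest Ctcf summits of Pax7, in the upstream flank where the H3K27me3 count was 9 in WT and 17 in KO cells. Of the WT H3K27me3 summits of Pax7, 37.9% (22.7 to 56.0) had a Ctcf summit within 1 kb, beside 11.1% over the list, and of the KO summits 18.6% (9.74 to 32.6), beside 10.4%. In WT cells, H3K27me3 summits of Pax7 thus had a Ctcf summit within 1 kb more often than those of the list. Among the members the WT share was highest at Pax7, and over the family it was 12.2%. The KO share was higher at Pax9 (37.5%) and Pax1 (26.7%) than at Pax7. The Pax7 window was also denser in Ctcf, with 10.7 summits per 100 kb against a median of 6.45 over all genes. The part of that density in the share was not tested.

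The Pax2 site lay 1193 bp upstream of the annotated start, between that start and the top H3K27me3 summit, with a Ctcf strength of 46.1 and a Rad21 summit of 14.9 at 19 bp. The Pax8 site carried the strongest pair of the family, Ctcf at 65 and Rad21 at 75.1 within 131 bp. It lay in an exon of Psd4, 66238 bp from the start of Pax8. The Pax1 site, at 25.8, lay 17206 bp downstream of its start with a Rad21 summit 8 bp away. At Pax3 the top Ctcf summit (16.4) had no Rad21 summit within 1 kb, the nearest being 1790 bp away. Pax3 was the only member with no strong Ctcf summit within 1 kb of a Rad21 summit.

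Finally, genes of the network in which Pax factors act together with homeodomain proteins and with Eya and Dach proteins were placed the same way. Of 4 partners with at least 10 H3K27me3 summits, Eya2 held 87 in WT and 71 in KO cells, Six3 36 and 35, Six2 32 and 42, and Six6 32 and 24. None was called in either direction, while 36% of all genes tested were called lower and 3.64% higher. Eya1 and Eya3 had no H3K27me3 summit in either genotype, and Eya4 held 39 Arid1a and 54 Brg1 summits beside 3 and 1 of H3K27me3. The network thus held densely marked genes and genes without the mark, as the Pax family itself did with Pax5 and Pax3.

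Among other developmental regulators, the 17 T-box genes held 328 and 253 H3K27me3 summits (0.771), and 4 of 15 tested (Tbx4, Tbx6, Tbx15 and Tbx19) were called lower and none higher. The shares over all genes tested were 36% lower and 3.64% higher. The difference from the Pax family was not tested.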

How the data were processed

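ChIP-seq of AB17 cells was analysed from 8 peak lists of 1 library each, and the reads of the 2 inputs were not analysed here. Per the study's methods and the submitters' processing notes, the authors used Bowtie2 (mm10) for alignment, SAMtools and Picard to discard poor and duplicate reads, and MACS2 with its default settings for peaks over the corresponding input; versions are not given in the sources used here. Each deposited list gave a summit position and the −log10 q-value of the peak assigned by the authors' MACS2 run. The unit was inferred from the values, none of which lay under 1.30, the −log10 of 0.05. MACS2 lists more peaks for a deeper library, and default narrow calling can split a broad domain or join it into 1 summit, so counts do not measure the amount of a mark.

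Summits were counted (Python 3.11.15, numpy 2.4.6, pandas 2.3.3, scipy 1.17.1, pysam 0.24.0) in the bodies of GENCODE vM21 genes plus 50 kb, and 0 summits lay beyond a GRCm38 chromosome end. Background shares used 21911 gene windows, and calls required 10 summits in both lists together and a ratio of 1.5 with 1 added to each count. The counting was tested on simulated lists. The named genes were all 9 members, their network partners (1 of which is not reported here), the T-box genes, cell type markers and, for each member, the strongest summit of each list. Members and lists were chosen with earlier results of these data known. Alternatives varied the window, strength limit, scaling, merging and matching distance.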

Additional observations from a re-analysis of the deposited data

How the results depend on the processing

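No paired analysis was possible because each group held 1 library. The KO to WT ratio of H3K27me3 summits (1.04) was 0.787 for strong summits and 1.33 after division by the size of each list, and between 0.949 and 1.19 for the other windows, for equal numbers of summits and for merged summits. Leaving out each gene in turn, chosen after seeing the data, gave 0.938 to 1.10. Pax5 and Pax7 were not left out together. The H3K9me3 ratio (0.484) became 3.0 for strong summits, which numbered 1 and 3, was 0.493 to 0.557 for the other windows and after division by list size, and was 0.435 to 0.533 without each gene in turn. The single H3K27me3 call lower in KO (Pax4) became 0 at a fold of 2, after division by list size and after merging, and its ratio turned to 1.20 with 10 kb on each side. With 10 kb on each side and for strong summits the 1 lower call was Pax2 in its place, with 10 and 5 and with 18 and 10 summits. Calls higher in KO numbered 2 after division by list size and 0 under every other setting. The WT share with a KO counterpart was 39.6% within 500 bp and 91.0% within 3 kb, and the KO share 39.5% and 91.0%, 50% for strong summits and 53.5% with 10 kb on each side. Rad21 summits near Ctcf made up 81.8% of strong Rad21 summits and 37.1% within 500 bp. Pax3 held 75.0% of the SWI/SNF summits with 10 kb on each side, and no SWI/SNF summit remained at a strength of 5, so that alternative gave no value. The cause of these changes was not tested beyond the fewer summits that each stricter setting leaves. Unknown depth, 1 library per group and summits in place of peak widths limit every comparison.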

Other observations

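The 5 protein-coding genes whose summit densities over the 8 lists were closest to the family median, by Euclidean distance of log2(1 + summits per 100 kb), were Gas7 (0.509), 1700019N19Rik (0.554), Arhgef7 (0.637), Sec22a (0.654) and Egf (0.756). By the same measure Pax2 (1.34) and Pax7 (1.37) were the members nearest to the family median, and Pax3 (5.34) was the farthest, with 56.7% of all genes nearer than it.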
